A study of Mus musculus with 30 samples.

Results

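The actin genes described here are the 6 of the mouse that encode the conventional actins: *Acta1*, *Actc1*, *Acta2*, *Actb*, *Actg1* and *Actg2*. They were chosen by name, with earlier results of these data known, and they are 6 of the 56748 genes in the deposited table. All 6 had enough counts to be tested in every comparison.

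Actin is the protein of the thin filaments of muscle and of the filaments under the membrane of other cells, and each of its genes is used in its own set of tissues. *Acta1* encodes skeletal alpha actin, the form of adult skeletal fibres, and *Actc1* encodes cardiac alpha actin, which skeletal muscle makes during development and which adult heart keeps. *Acta2* and *Actg2* encode the alpha and gamma actins of smooth muscle, with *Acta2* typical of vessel walls and *Actg2* of the gut, while *Actb* and *Actg1* encode the cytoplasmic beta and gamma actins found in nearly all cells. The genes are known as targets of serum response factor, which binds a sequence called the CArG box.

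Poly(A) RNA of the quadriceps of 30 mice was sequenced, and the authors deposited raw read counts per gene. WT mice were FVB/N (n = 5), and the other 25 mice were of the homozygous HSA-LR line (HSA-LR20b), which carries a human skeletal actin transgene with a long CTG repeat and serves as a model of myotonic dystrophy type 1. NT mice were HSA-LR mice without treatment (n = 8). L9 is an oligonucleotide of locked nucleic acid against CUG repeats, and pacDNA-L9 is its conjugate with a bottlebrush polymer, given to HSA-LR mice in 3 doses stated per weight of oligonucleotide. Of these mice, 4 received 5.3 mg/kg, 3 received 21.2 and another 3 received 42.4. The controls were HSA-LR mice given Free L9 at 5.3 mg/kg (n = 3), the polymer alone at 40 nanomoles (Brush, n = 2) or the conjugate of a scrambled sequence at 5.3 mg/kg (pacDNA-Scr, n = 2). Mice were 8 weeks old at injection into the tail vein, the higher doses were divided over several injections, and muscle was taken 2 weeks after the last one. The transgene is skeletal actin of another species, and the counts per mouse gene cannot show how many reads of it were assigned to *Acta1*. That limit applies to every *Acta1* value of the 25 HSA-LR mice.

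The libraries held 13605309 to 26956558 counts, with a median of 20141850.5. WT libraries held 17376897 to 19682221 and NT libraries 17576503 to 23707138. The 3 doses of pacDNA-L9 held 16362704 to 22622625, 17658138 to 22954919 and 18369605 to 25404614 in rising order of dose. Free L9 libraries held 13605309 to 20485157, Brush libraries 14712245 to 20070270 and pacDNA-Scr libraries 17462719 to 26956558.

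Several libraries stood apart in ways the groups do not explain. The labels number 24 libraries as a first set and 6 as a second, which holds NT 7, NT 8, mice C and D at 5.3 mg/kg, mouse C at 21.2 mg/kg and Free L9 C. In 5 of those 6, all except Free L9 C, the 37 mitochondrial genes were listed at 0. The table identifies 9 of the first set by group and running number alone: NT 6, Brush B, pacDNA-Scr B, Free L9 A, Free L9 B, a WT mouse that carries no number of its own and every mouse given 42.4 mg/kg. All mice at 42.4 mg/kg are among these 9, so dose and naming can be told apart only through the other named libraries. Free L9 B had 22.3% of its counts on mitochondrial genes and 14485 genes with a count. By counts on *Xist* and Y-linked genes, WT 1 was the only male among the WT mice and 4 of the 8 NT mice were female. All 3 mice at 42.4 mg/kg were female, so sex is not balanced in their comparison with NT.

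All 6 genes lie on the minus strand of GRCm39. *Acta1* (ENSMUSG00000031972) spans 124618501 to 124623661 on chromosome 8, *Actc1* (ENSMUSG00000068614) spans 113876266 to 113884043 on chromosome 2 and *Acta2* (ENSMUSG00000035783) spans 34217737 to 34232990 on chromosome 19. *Actb* (ENSMUSG00000029580) spans 142888870 to 142892509 on chromosome 5, *Actg1* (ENSMUSG00000062825) spans 120236512 to 120239617 on chromosome 11 and *Actg2* (ENSMUSG00000059430) spans 83489887 to 83513551 on chromosome 6. Their coding sequences are 1128 to 1134 bases long. Any 2 of them share 81.6% to 88.7% of the coding bases, with *Actb* and *Actg1* at 88.7% and *Acta1* and *Actc1* at 86.2%. How the authors counted reads that map to several genes is not given in the sources used here. The copies *Actb-ps1* and *Actbl2* were at 0 in all 30 libraries, below a floor of 3 counts or 0.111 to 0.221 CPM (counts scaled to libraries of equal size), and *Actg-ps1* had 0 to 6 counts.

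Genes on the opposite strand overlap 4 of the 6, and whether counting was stranded is not given in the sources used here. *Gm29773* shares 650 bases with *Acta1* and had 282 to 850 counts per library. *0610009L18Rik* shares 535 bases with *Actg1* and had 110 to 771 counts, against 1220 to 4381 for *Actg1*. *Stambpl1* shares 301 bases with *Acta2* and had 3 to 38 counts, and *Gjd2os*, which spans *Actc1*, had 0 to 2. L9 is directed against CUG repeats, and a site of 9 such bases, CTGCTGCTG, was in 0 of the 6 canonical mRNAs, against 3320 of 22263 coding genes (14.9%).

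RefSeq promoters of build GRCm38.p6 were at hand for 4 of the 6 genes, and all 4 are printed because these genes are the ones whose levels the comparisons below turn on or, for *Acta1*, the most abundant. Each is the 250 bases before the gene start on the minus strand, 5′ to 3′, at chr2:114052876-114053125 for *Actc1*, chr8:123894776-123895025 for *Acta1*, chr11:120348496-120348745 for *Actg1* and chr19:34255374-34255623 for *Acta2*. Capitals mark matches to the CArG box, a motif of 10 bases searched on both strands. *Actc1*, *Acta1* and *Actg1* had 1 match each, beginning 47, 73 and 90 bases before the start, and *Acta2* had 0. Among all genes with a promoter in the table, 439 of 27025 (1.62%) had a match. Each match reads CC, then 6 bases of A or T, then GG, and near matches were not counted. The *Acta2* and *Actc1* stretches both hold ccctatatgg, which is 1 base off the match in *Actg1*. A match is a run of letters and no evidence of binding. Its absence holds for exact matches in these 250 bases alone.
Actc1: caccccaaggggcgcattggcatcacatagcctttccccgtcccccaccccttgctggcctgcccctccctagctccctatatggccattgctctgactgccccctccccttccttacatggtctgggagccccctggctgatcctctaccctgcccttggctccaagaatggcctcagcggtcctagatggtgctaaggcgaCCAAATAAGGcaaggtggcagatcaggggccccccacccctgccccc
Acta1: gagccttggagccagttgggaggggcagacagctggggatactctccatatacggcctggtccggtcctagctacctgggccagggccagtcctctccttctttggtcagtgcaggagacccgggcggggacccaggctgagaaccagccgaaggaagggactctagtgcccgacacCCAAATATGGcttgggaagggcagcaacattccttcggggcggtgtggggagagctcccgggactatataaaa
Actg1: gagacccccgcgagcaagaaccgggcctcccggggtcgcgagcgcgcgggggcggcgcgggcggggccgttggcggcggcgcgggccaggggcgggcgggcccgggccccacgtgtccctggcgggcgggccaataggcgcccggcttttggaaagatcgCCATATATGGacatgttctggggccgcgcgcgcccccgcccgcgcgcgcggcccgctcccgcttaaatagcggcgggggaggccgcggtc
Acta2: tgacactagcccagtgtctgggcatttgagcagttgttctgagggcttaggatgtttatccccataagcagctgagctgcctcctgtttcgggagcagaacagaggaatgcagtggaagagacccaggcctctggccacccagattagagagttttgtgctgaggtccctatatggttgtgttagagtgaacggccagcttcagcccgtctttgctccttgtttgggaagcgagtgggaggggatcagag

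*Acta1* was the most abundant actin in every library. Levels are given in CPM after TMM normalization. The 5 WT mice had 50642 CPM in WT 1, 36081 in WT 2, 36853 in WT 3, 40217 in WT 4 and 37285 in the unnumbered mouse. The 8 NT mice ranged from 32728 to 53669.6 with a median of 45119.6, so the groups overlapped over nearly their whole range. At 5.3 mg/kg the mice had 41788, 38576, 27650.1 and 40555 CPM, at 21.2 mg/kg 39449, 44991 and 26116, and at 42.4 mg/kg 51327, 48271 and 42969.6. Mouse C at 5.3 mg/kg and mouse C at 21.2 mg/kg, the lowest of these, are both of the second set. Free L9 mice had 57539, 19506 and 39903 CPM, with the highest and the lowest *Acta1* level of all 30 libraries in A and B. Brush mice had 44969 and 47572 CPM and pacDNA-Scr mice 47129.8 and 42929.7, all within the NT range.

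Means of *Acta1* ran, from the highest, 47523 ± 4229 CPM (SD, n = 3) at 42.4 mg/kg, 46271 ± 1841 (n = 2) with Brush, 45029.8 ± 2969.9 (n = 2) with pacDNA-Scr, 44369.8 ± 7602 (n = 8) in NT and 40215 ± 6035 (n = 5) in WT. Free L9 followed at 38983 ± 19033 (n = 3), then 5.3 mg/kg at 37143 ± 6465 (n = 4) and 21.2 mg/kg at 36852 ± 9702 (n = 3). No neighbours in that order differed by more than their spread. The sets lay apart: NT mice of the first set had 47958 ± 4335 CPM (n = 6) and those of the second 33605 ± 1241 (n = 2). Over all HSA-LR mice the means were 44988 ± 7840 (n = 19) and 33572 ± 6017 (n = 6).

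*Actc1* was higher in every WT mouse than in any HSA-LR mouse. WT 1 had 3185 CPM, WT 2 394, WT 3 696, WT 4 334 and the unnumbered WT mouse 195. NT mice ranged from 16.3 to 78.3 CPM with a median of 29.6. The lowest WT mouse lay above the highest HSA-LR mouse, Free L9 A at 87.4 CPM, and WT 1 lay far above the other WT mice. Mice at 5.3 mg/kg had 77.0, 31.7, 17.0 and 21.7 CPM, those at 21.2 mg/kg 24.3, 36.2 and 21.5, and those at 42.4 mg/kg 19.9, 26.8 and 30.7. Free L9 mice had 87.4, 44.8 and 76.5 CPM, Brush mice 39.5 and 78.6, and pacDNA-Scr mice 23.8 and 66.3. All treated groups overlapped NT.

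Means of *Actc1* were 961 ± 1257 CPM (n = 5) in WT, 69.6 ± 22.1 (n = 3) with Free L9, 59.1 ± 27.7 (n = 2) with Brush, 45.0 ± 29.99 (n = 2) with pacDNA-Scr and 38.1 ± 21.6 (n = 8) in NT. They were 36.9 ± 27.5 (n = 4), 27.4 ± 7.79 (n = 3) and 25.8 ± 5.46 (n = 3) at the 3 rising doses of pacDNA-L9. Only WT and Free L9, the first neighbours in that order, had ranges that lay apart. NT mice had 43.5 ± 22.4 CPM (n = 6) in the first set and 22.0 ± 8.04 (n = 2) in the second.

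*Acta2*, the smooth muscle alpha actin, tended to be higher in WT mice and at 42.4 mg/kg. WT 1 had 106 CPM, WT 2 38.3, WT 3 51.6, WT 4 40.8 and the unnumbered WT mouse 71.7. NT mice ranged from 23.6 in NT 3 to 52.9 in NT 6 with a median of 35.9. The 3 mice at 42.4 mg/kg had 47.1, 52.4 and 80.3 CPM, of which the first and second lay under NT 6. Other HSA-LR mice lay between 28.1 and 61.1 CPM. Means were 61.7 ± 28.1 (n = 5) in WT, 59.9 ± 17.8 (n = 3) at 42.4 mg/kg, 47.0 ± 20.0 (n = 2) with pacDNA-Scr, 46.7 ± 3.57 (n = 3) with Free L9 and 40.8 ± 5.01 (n = 2) with Brush. They were 37.6 ± 4.46 (n = 3) at 21.2 mg/kg, 36.7 ± 8.46 (n = 8) in NT and 35.0 ± 5.12 (n = 4) at 5.3 mg/kg. The only neighbours whose means were more than the larger SD apart were Free L9 and Brush, and their ranges overlapped.

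*Actg1*, the cytoplasmic gamma actin, was lowest in the 3 mice at 42.4 mg/kg. Those mice had 69.4, 72.0 and 74.6 CPM, below all other 27 mice. WT 1 had 193 CPM, WT 2 129.6, WT 3 128, WT 4 151 and the unnumbered WT mouse 189. NT mice ranged from 92.9 to 152 with a median of 100.01, and NT 7 of the second set, at 152, was the only NT mouse above the lowest WT mouse. Mice at 5.3 mg/kg had 126, 123, 139 and 156 CPM and those at 21.2 mg/kg 88.0, 98.2 and 104. Free L9 mice had 138, 89.6 and 191 CPM, Brush mice 91.2 and 103, and pacDNA-Scr mice 95.5 and 154.

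Means of *Actg1* were 158 ± 31.3 CPM (n = 5) in WT, 139 ± 50.6 (n = 3) with Free L9, 136 ± 14.8 (n = 4) at 5.3 mg/kg, 125 ± 41.5 (n = 2) with pacDNA-Scr and 107 ± 19.3 (n = 8) in NT. Brush followed with 97.0 ± 8.09 (n = 2), 21.2 mg/kg with 96.8 ± 8.25 (n = 3) and 42.4 mg/kg with 72.0 ± 2.61 (n = 3). The last neighbours, 21.2 and 42.4 mg/kg, had ranges apart and means more than the larger SD apart, and the others lay within their spread. The second set was higher, with 131 ± 30.2 CPM (n = 2) against 99.6 ± 6.92 (n = 6) in NT, and 142 ± 32.1 (n = 6) against 101 ± 21.8 (n = 19) over all HSA-LR mice.

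*Actb*, the cytoplasmic beta actin, overlapped between WT and NT and was highest in Free L9 mice. WT 1 and the unnumbered WT mouse both had 349 CPM, and WT 2, 3 and 4 had 188, 207 and 248. NT mice ranged from 189.9 to 254 with a median of 217. Free L9 mice had 303, 365 and 242 CPM, and the first and second of these lay above every other HSA-LR mouse. The remaining HSA-LR mice lay between 176 and 298 CPM. Means ran from 303 ± 61.8 (n = 3) with Free L9, 268 ± 76.9 (n = 5) in WT, 267 ± 43.8 (n = 2) with pacDNA-Scr and 244 ± 22.0 (n = 4) at 5.3 mg/kg to 219.8 ± 28.1 (n = 2) with Brush. NT had 219 ± 22.2 (n = 8), 42.4 mg/kg 210.3 ± 14.1 (n = 3) and 21.2 mg/kg 194 ± 21.8 (n = 3), and no neighbours differed by more than their spread.

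*Actg2*, the gamma actin of gut smooth muscle, was near the limit of the depth. It had 1 to 46 counts per library with a median of 9.5, and NT 3, with 1 count (0.0569 CPM), lay under the floor of 3 counts, 0.171 CPM in that library. WT mice had 0.501 to 1.64 CPM, NT mice 0.0569 to 0.819 with a median of 0.423, and the highest treated mouse, pacDNA-Scr B, 1.62. Group means ran from 0.956 ± 0.938 (n = 2) with pacDNA-Scr, 0.888 ± 0.466 (n = 5) in WT and 0.705 ± 0.307 (n = 3) with Free L9 to 0.559 ± 0.153 (n = 3) at 42.4 mg/kg. They ended with 0.490 ± 0.136 (n = 3) at 21.2 mg/kg, 0.450 ± 0.238 (n = 8) in NT, 0.429 ± 0.285 (n = 4) at 5.3 mg/kg and 0.423 ± 0.0328 (n = 2) with Brush. No neighbours in that order differed by more than their spread.

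**Figure D1:**
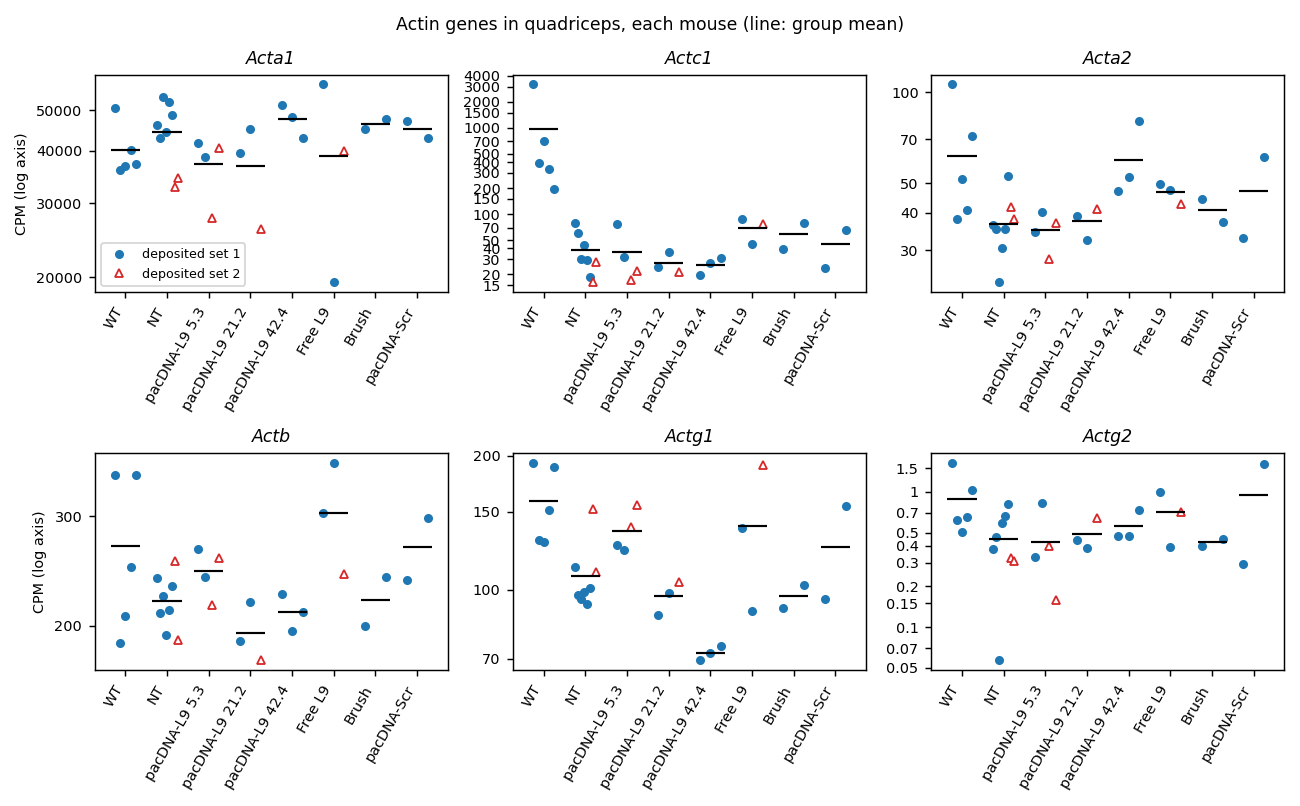
Level of each actin gene in each of the 30 mice, in CPM on a log axis with its own scale for each gene, by group. Circles are mice of the first deposited set, triangles those of the second and lines group means. All WT mice lie above all others for *Actc1*, and the 3 mice at 42.4 mg/kg lie lowest for *Actg1*.

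Levels of different genes were compared per kilobase of annotated exons. Over the 30 libraries *Acta1* had 11281 ± 2260 CPM per kilobase, *Actb* 81.7 ± 16.9, *Actg1* 39.5 ± 11.5 and *Acta2* 14.0 ± 5.17. *Actc1* had 33.6 ± 101 with a median of 6.53, and *Actg2* had 0.267 ± 0.162. *Acta1* ranked first and *Actg2* last in 30 of 30 libraries. *Actb* had rank 2 in 27 libraries and rank 3 in the other 3, WT 1, WT 2 and WT 3, where *Actc1* had rank 2. *Actg1* had rank 3 in 25 libraries, and *Actc1* had rank 5 in 22.

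Shares of the 6 genes were computed from counts per kilobase. *Acta1* made up 97.2% ± 1.45 (SD, n = 5) of actin in WT, from 94.7% in WT 1 to 98.1%, and 98.9% ± 0.285 (n = 8) in NT, from 98.3% to 99.2%. In rising order of dose it made up 98.5% ± 0.185 (n = 4), 98.8% ± 0.313 (n = 3) and 99.1% ± 0.137 (n = 3). Free L9 had 98.0% ± 1.12 (n = 3), with 96.7% in the lowest mouse, Brush 99.0% ± 0.0814 (n = 2) and pacDNA-Scr 98.7% ± 0.410 (n = 2). *Actc1* made up 1.31% ± 1.44 in WT, from 0.328% to 3.82%, and without WT 1 its mean share there was 0.680%. Its share was 0.0548% ± 0.0300 in NT, 0.0351% ± 0.0103 at 42.4 mg/kg and 0.120% ± 0.0232 with Free L9. *Actb* held 0.821% ± 0.203 in WT and 0.638% ± 0.148 in NT, and *Actg1* held 0.473% ± 0.0780 in WT, 0.311% ± 0.116 in NT and 0.187% ± 0.0235 at 42.4 mg/kg.

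As plain shares of actin counts, with a Wilson 95% interval that covers counting error only, *Actc1* reached 5.85% (5.80% to 5.89%) in WT 1 and 0.0385% (0.0348% to 0.0425%) in NT 6. The 6 genes together took 4.26% ± 0.762 of all counts in WT (n = 5) and 4.44% ± 0.824 in NT (n = 8). Within NT the sets differed, with 4.84% ± 0.409 (n = 6) in the first and 3.23% ± 0.120 (n = 2) in the second. The same held at 5.3 mg/kg, with 4.54% ± 0.236 (n = 2) and 3.19% ± 0.529 (n = 2) around a mean of 3.86% ± 0.847. Mice given 21.2 mg/kg had 3.81% ± 1.02 (n = 3), and those given 42.4 had 4.69% ± 0.424 (n = 3). Brush mice had 4.73% ± 0.142 (n = 2), pacDNA-Scr mice 4.61% ± 0.0420 (n = 2) and Free L9 mice 3.70% ± 1.78 (n = 3). The extremes were Free L9 B with 2.13% (2.12% to 2.14%) and Free L9 A with 5.64%, and WT 1 had 5.596% (5.59% to 5.61%).

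The other 5 genes are easier to compare once *Acta1* is left out. *Actc1* then made up 71.7% in WT 1, 36.3% in WT 2, 48.1% in WT 3, 28.0% in WT 4 and 14.1% in the unnumbered WT mouse, against 1.84% to 9.39% in NT. No HSA-LR mouse reached the lowest WT mouse. Its mean was 39.7% ± 21.8 (n = 5) in WT and 5.14% ± 2.70 (n = 8) in NT. The 3 rising doses had 4.25% ± 2.91 (n = 4), 4.06% ± 0.885 (n = 3) and 3.74% ± 0.712 (n = 3). Free L9 had 6.79% ± 2.13 (n = 3), Brush 7.65% ± 2.75 (n = 2) and pacDNA-Scr 4.72% ± 2.09 (n = 2).

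In HSA-LR mice *Actb* was the largest of these 5. It held 33.9% ± 13.1 in WT (n = 5), 58.2% ± 2.72 in NT (n = 8) and 60.5% ± 4.26 at 42.4 mg/kg (n = 3). *Actg1* held 19.8% ± 7.28 in WT (n = 5), 27.7% ± 2.81 in NT (n = 8), 31.0% ± 3.84 (n = 4) in mice given 5.3 mg/kg and 20.1% ± 1.07 (n = 3) in those given 42.4. *Acta2* held 6.49% ± 1.80 in WT (n = 5), 8.84% ± 1.82 in NT (n = 8) and 15.5% ± 3.69 at 42.4 mg/kg (n = 3), where it ran from 12.4% to 19.5%. At that dose the mean share of *Actg1* was smaller and that of *Acta2* larger than in NT, by more than the SD of NT mice.

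**Figure D2:**
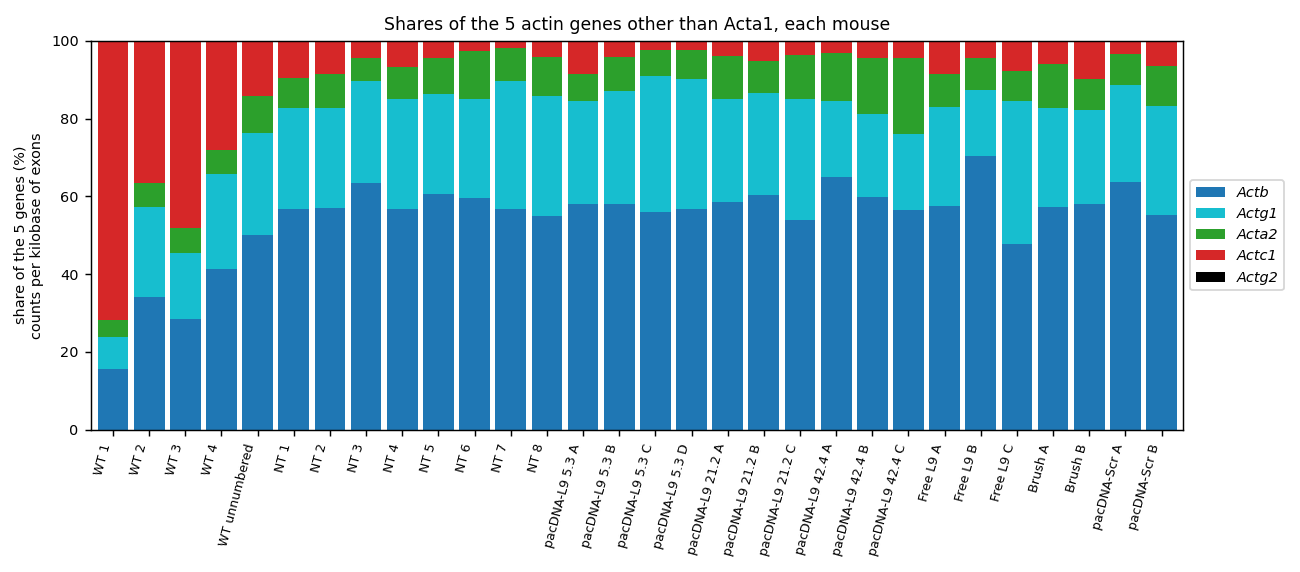
Share of *Actb*, *Actg1*, *Acta2*, *Actc1* and *Actg2* in the summed counts per kilobase of these 5 genes, in percent, with 1 bar for each of the 30 mice. *Actc1* runs from 14.1% to 71.7% in WT mice and from 1.84% to 9.39% in NT mice.

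The first comparison, NT against WT, asks how the HSA-LR line differs from its background strain. *Actc1*, *Actg1* and *Acta2* were lower in NT mice. The fit was edgeR's quasi-likelihood model of all 30 libraries, with Benjamini-Hochberg adjustment over 17518 genes and a threshold of 0.05. It called 3 of the 6 actin genes, all lower in NT, where it called 4.97% of all genes (871, of which 602 were higher). An unadjusted p was under 0.05 for 4 of the 6. The median log2 fold change was -0.65 over the 6 and 0.03 over all genes tested. In bulk muscle, fewer cells of a type cannot be told apart from less RNA per cell.

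The *Actc1* level differed 25.2-fold between NT and WT, with a log2 fold change of -4.66 (SE 0.57) and an adjusted p of 8.59e-06 by edgeR's quasi-likelihood test, and all 8 NT mice lay below all 5 WT mice. It stood at rank 56 of 17518 genes by p. WT 1 decided much of the size: without it the log2 fold change was -3.42. Within the first set it was -4.46. With mouse numbers as a block, in 4 mice a group, it was -3.87 and the call was lost (adjusted p 0.0564). WT 1 also stood apart on the fibroblast list, with a summed 3377 CPM against 711 to 1249.6 in the other WT mice, and on the Schwann cell list, with 187 against 63.8 to 103. The part of those cells in its actin levels was not tested.

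*Actg1* was 1.47-fold lower in NT, with a log2 fold change of -0.56 (SE 0.15) and an adjusted p of 0.0303 by edgeR's quasi-likelihood test. NT 7 was the only NT mouse inside the WT range. The call was lost without WT 1 (adjusted p 0.1005), WT 4 (0.0521), the unnumbered WT mouse (0.101), NT 2 (0.0524), NT 3 (0.0584), NT 4 (0.0509) or NT 5 (0.0569), in female mice alone (0.340) and with an absolute log2 fold change above 1 required. Over all alternatives its adjusted p ran from 0.00221 to 0.340. In the first set alone the log2 fold change was -0.66 and the adjusted p 0.00599.

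*Acta2* was 1.68-fold lower in NT, with a log2 fold change of -0.75 (SE 0.21) and an adjusted p of 0.0361 by edgeR's quasi-likelihood test, and the groups overlapped. The call changed with single libraries and with settings. It was lost without WT 1 (log2 fold change -0.46, adjusted p 0.239), the unnumbered WT mouse (0.0967), NT 1 (0.0559), NT 2 (0.0558), NT 3 (0.0708), NT 4 (0.0632), NT 5 (0.0575) or NT 8 (0.0548). It was also lost in 8 of 18 settings: without a filter on low counts (0.0534), with only these groups (0.0700), in the first set alone (0.0643), without the libraries at 0 mitochondrial counts (0.0634), with mouse numbers as a block (0.120), in the same mice without a block (0.178), in females (0.281) and with an absolute log2 fold change above 1 required. In the first set the log2 fold change was -0.78, and the adjusted p ran from 0.0112 to 0.281 over all alternatives.

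The other 3 were not called. *Actb* had a log2 fold change of -0.29 (SE 0.14, adjusted p 0.223), *Actg2* of -0.96 (SE 0.47, adjusted p 0.235) and *Acta1* of 0.14 (SE 0.19, adjusted p 0.719), by edgeR's quasi-likelihood test. These adjusted p-values do not show that the levels were equal.

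Each treated group was compared with the same 8 NT mice, so these comparisons share their controls and their values are given side by side. They ask whether a treatment moved the actin genes from their level in untreated HSA-LR mice. At 5.3 mg/kg of pacDNA-L9, 0 of the 6 genes were called by edgeR's quasi-likelihood test, as were 0% of all genes, 0 of the 6 had an unadjusted p under 0.05 and DESeq2 called 0. *Actg1* was closest, with a log2 fold change of 0.34 (SE 0.16). At 21.2 mg/kg edgeR again called 0 of the 6, with 0.0514% of all genes (9, and 2 without mouse B or C at that dose or 5 without NT 1, 2, 4, 5 or 8, 2 in the first set alone and 0 with only these groups), 0 had an unadjusted p under 0.05 and DESeq2 called 0. Log2 fold changes there ran from -0.48 (SE 0.66) for *Actc1* to 0.12 (SE 0.57) for *Actg2*. The median over the 6 actins was -0.06 at the lower and -0.16 at the higher of these doses, beside 0.03 and 0.01 over all genes.

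At 42.4 mg/kg, *Actg1* was lower and *Acta2* higher than in NT, and neither passed the threshold. edgeR called 0 of the 6, with 2.57% of all genes called (450, of which 336 were higher, and 63 without mouse B). By DESeq2 most calls over all genes were in the other direction, with 527 higher and 845 lower. An unadjusted p was under 0.05 for 2 of the 6, and DESeq2 called 1. *Actg1* had a log2 fold change of -0.58 (SE 0.19, 1.49-fold lower, p 0.00555, adjusted p 0.128 by Benjamini-Hochberg in edgeR), and all 3 treated mice lay below all 8 NT mice. DESeq2 gave it an adjusted p of 0.0334 and a fit of these groups alone 0.0434, within a range of 0.0334 to 0.469 over its alternatives. Within the first set its log2 fold change was -0.48, with the set as a covariate -0.47 and with the naming of libraries as a covariate -0.60. *Acta2* had a log2 fold change of 0.71 (SE 0.25, 1.63-fold higher, p 0.00821, adjusted p 0.160 in edgeR), and the groups overlapped. It was 0.43 without mouse C, 0.73 in the first set and 0.40 with the naming of libraries as a covariate.

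The other 4 genes at 42.4 mg/kg differed from NT by less than their standard errors. Log2 fold changes were -0.56 (SE 0.66) for *Actc1*, -0.06 (SE 0.16) for *Actb*, 0.31 (SE 0.56) for *Actg2* and 0.10 (SE 0.22) for *Acta1*, against a median of -0.06 over all genes. For *Acta1* the sign was negative in the first set alone (-0.03) and without the 5 libraries at 0 mitochondrial counts (-0.01), and for *Actg2* it was negative in 2 of 26 alternatives.

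In Free L9 mice against NT, edgeR called 0 of the 6 genes, with 0.126% of all genes (22), 2 had an unadjusted p under 0.05 and DESeq2 called 0. *Actb* had a log2 fold change of 0.47 (SE 0.16, p 0.00622, adjusted p 0.351 in edgeR) and *Actg1* of 0.37 (SE 0.18, p 0.0484, adjusted p 0.526 in edgeR). *Actc1* had 0.87 (SE 0.62, adjusted p 0.684 in edgeR). The median over the 6 actins was 0.42, beside -0.002 over all genes. With the naming of libraries as a covariate *Actb* had 0.28, and in the first set with that covariate *Actg1* had -0.04. Free L9 B had 89.6 CPM of *Actg1*, below every NT mouse (lowest 92.9). *Actb* had 0.29 without Free L9 B, and *Actg1* had 0.59 without B and 0.08 without C. Over settings the log2 fold change of *Actb* ran from 0.09 to 0.62. The count over all genes was 242 without Free L9 A, 38 without B, 314 without C, 13 without NT 2 or 4 and 14 without NT 3, 6 or 8. Free L9 B had the lowest *Acta1* and the highest *Actb* level of the 3, and without it the log2 fold change of *Acta1* was 0.11 in place of -0.19.

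With Brush, edgeR called 0 of the 6 genes and 0% of all genes, 0 of the 6 had an unadjusted p under 0.05 and DESeq2 called 0. Log2 fold changes ran from -0.15 (SE 0.22) for *Actg1* to 0.63 (SE 0.72) for *Actc1*. With pacDNA-Scr, edgeR called 0 of the 6 genes and 0% of all genes, 0 of the 6 had an unadjusted p under 0.05 and DESeq2 called 0. There the log2 fold changes ran from 0.02 (SE 0.26) for *Acta1* to 1.08 (SE 0.62) for *Actg2*, which had 1.62 CPM in one mouse and 0.293 in the other. The medians over the 6 were 0.03 with Brush and 0.27 with pacDNA-Scr, beside -0.04 and -0.03 over all genes.

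The last comparison set 42.4 mg/kg against WT. *Actc1* and *Actg1* were lower in the treated mice than in WT mice. edgeR called 2 of the 6 genes, both lower, with 7.9% of all genes called (1384, of which 894 were higher, and 702 without mouse B at 42.4 mg/kg). *Actc1* was 37.2-fold lower, with a log2 fold change of -5.22 (SE 0.90) and an adjusted p of 0.000447 by edgeR's quasi-likelihood test. *Actg1* was 2.19-fold lower, with a log2 fold change of -1.13 (SE 0.21) and an adjusted p of 0.000680 by edgeR's quasi-likelihood test. For both genes all 3 treated mice lay below all 5 WT mice. Both calls held in all 24 alternatives, 8 of which left out 1 mouse, with adjusted p-values up to 0.0237 for *Actc1* and 0.00626 for *Actg1*, and without WT 1 the log2 fold change of *Actc1* was -3.98. *Acta2*, lower in NT than in WT, had -0.04 (SE 0.27, adjusted p 0.998 in edgeR) here, with a sign that changed in 6 of 24 alternatives. The remaining log2 fold changes were -0.35 (SE 0.18, adjusted p 0.274 in edgeR) for *Actb*, -0.66 (SE 0.62) for *Actg2* and 0.24 (SE 0.24) for *Acta1*, beside a median of -0.50 over the 6 and -0.02 over all genes.

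**Figure D3:**
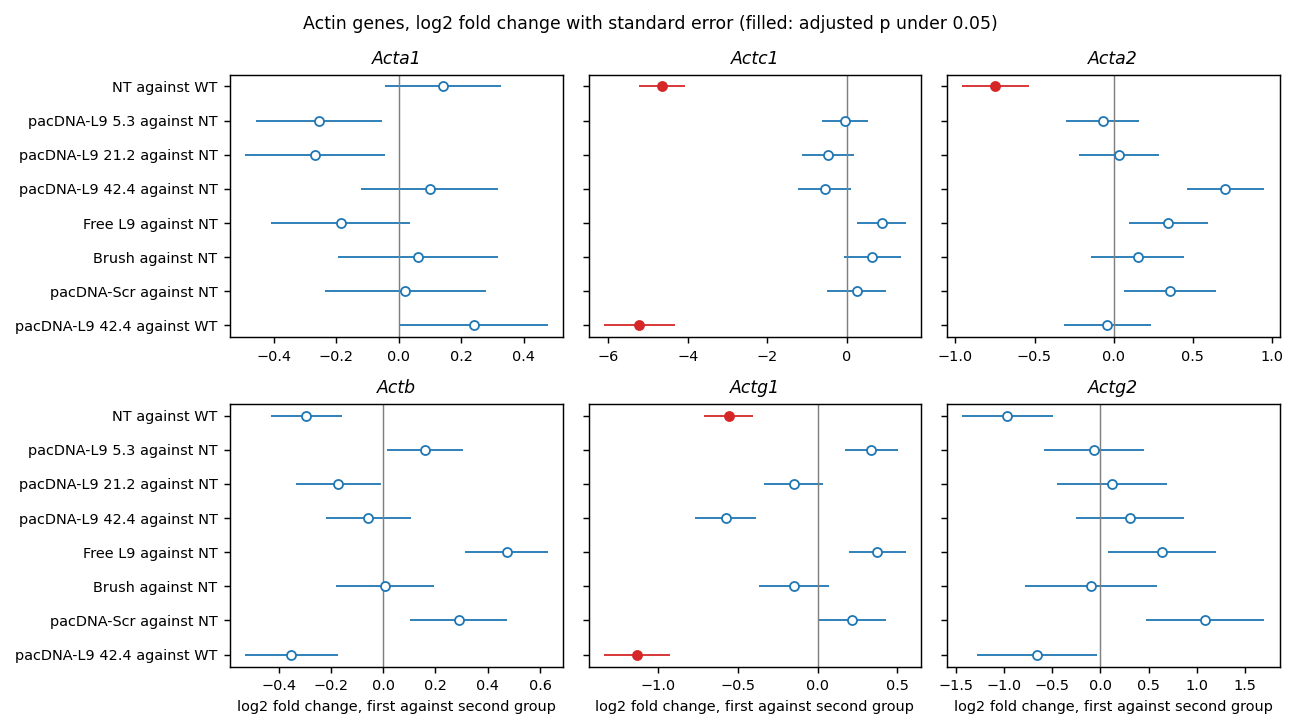
Log2 fold change of each actin gene in the 8 comparisons, first group against second, with bars for 1 standard error from edgeR's fit and a scale of its own for each gene. Filled points have an adjusted p under 0.05: *Actc1* and *Actg1* in NT and at 42.4 mg/kg against WT, and *Acta2* in NT against WT.

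Correlation between animals was computed on log2 CPM with a pseudocount of 0.5 in the 19 HSA-LR mice of the first set. All 15 pairs of actin genes were tested by two-sided permutation (100000 resamples) with Benjamini-Hochberg adjustment over the 15. Mice with more *Actc1* had more *Actg1*, with a Pearson r of 0.66 (permutation p 0.00200, adjusted 0.0150) and a Spearman rho of 0.64 (permutation p 0.00377, adjusted 0.0283). Without the 2 mice farthest from the median of *Actc1*, r was 0.63. It was lower over both sets together, at 0.26 (n = 25, permutation adjusted p 0.579), and 0.49 within the second (n = 6, exact permutation p 0.338). As deviations from group means r was 0.68, with an adjusted p of 0.0598 by permutation. Without the HSA-LR libraries named by running number r was 0.58 (n = 11, permutation adjusted p 0.209). With 1 mouse left out r ran from 0.60 to 0.72, and the call was lost without mouse A at 42.4 mg/kg (permutation adjusted p 0.0556), Free L9 A (0.0564) or pacDNA-Scr B (0.05002). Its adjusted p ran from 0.00960 to 0.723 over the alternatives.

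Mice with more *Acta2* had more *Actg2*, the other smooth muscle actin, with r 0.67 (permutation p 0.00192, adjusted 0.0150) and rho 0.66 (permutation p 0.00285, adjusted 0.0283). Without the 2 mice farthest from the median of *Acta2*, r was 0.61. Over both sets r was 0.64 (n = 25, permutation adjusted p 0.0116), within the second set 0.31 (n = 6, exact permutation p 0.583) and as deviations from group means 0.79 (permutation adjusted p 0.0407). The call was lost without NT 3 (r 0.57, permutation adjusted p 0.115), Free L9 A (0.0538) or pacDNA-Scr B (0.05002). It was also lost without the HSA-LR libraries named by running number (r 0.64, n = 11, permutation adjusted p 0.209). The adjusted p ran from 0.00945 to 0.795 over the alternatives. NT 3 had the lowest *Acta2* level of these mice and a single count of *Actg2*.

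*Actb* and *Actg1*, the cytoplasmic pair, had r 0.53 (permutation p 0.0197, adjusted 0.0986) and rho 0.59 (permutation p 0.00821, adjusted 0.0411). Free L9 B lowered the coefficient: without it r was 0.79 (permutation adjusted p 0.00300), and with any other mouse left out the pair was not called. Without the 2 mice farthest from the median of *Actb*, r was 0.75 (permutation adjusted p 0.00960). Without the HSA-LR libraries named by running number r was 0.81 (n = 11, permutation adjusted p 0.0273). Over both sets r was 0.40 (n = 25, permutation adjusted p 0.231), and within the second set 0.88 (n = 6, exact permutation p 0.0208, adjusted 0.313). The adjusted p ran from 0.00300 to 0.957 over the alternatives.

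None of the other 12 pairs passed the threshold by Pearson's r. *Acta1* and *Actb* had r -0.49 (permutation p 0.0498, adjusted 0.125) but rho -0.04, and r was 0.22 without Free L9 B. *Acta1* had r between -0.15 and 0.05 with the remaining 4 genes. The 5 WT mice are too few for a correlation of their own, so what is said here covers HSA-LR mice alone.

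**Figure D4:**
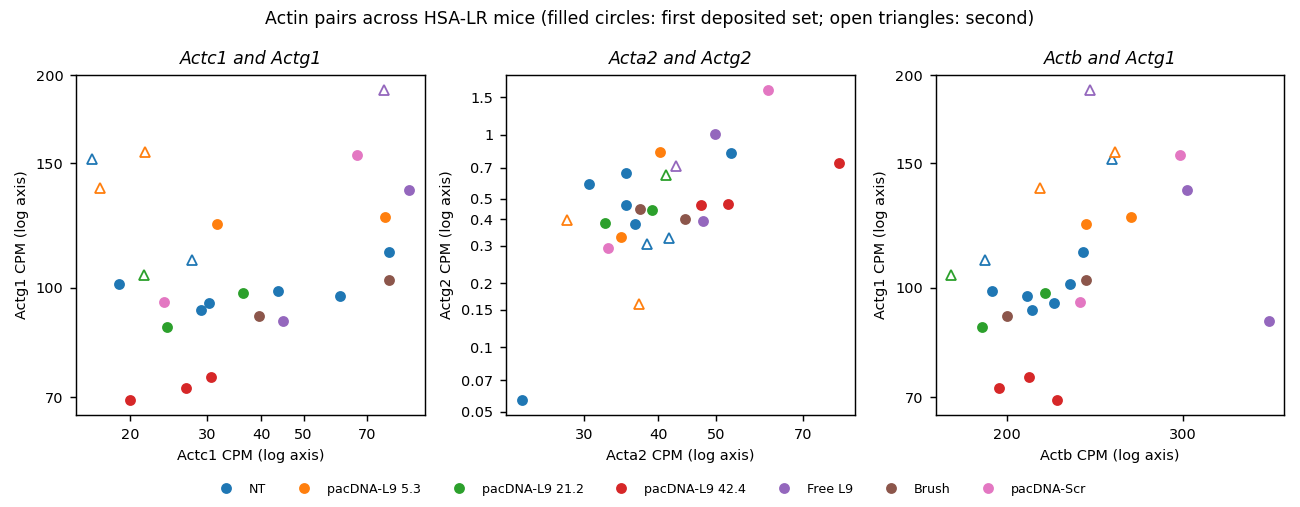
Levels of 3 pairs of actin genes in the 25 HSA-LR mice, in CPM on log axes, with 1 point per mouse coloured by group. Filled circles are the 19 mice of the first set, over which r was 0.66 for *Actc1* and *Actg1*, 0.67 for *Acta2* and *Actg2* and 0.53 for *Actb* and *Actg1*. Open triangles are the 6 mice of the second set.

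For each actin the 3 tested genes most like it were found by Pearson's r of log2 CPM over the 24 mice of the first set, among genes with a mean of at least 5 CPM. The coefficients are descriptions, and they include the difference between WT and HSA-LR mice. *Acta1* was most like *Pgk1* (r 0.96), *Jsrp1* (0.95) and *Rnf40* (0.94), with 0.97, 0.98 and 0.96 in the 19 HSA-LR mice alone. Among the genes most like *Actc1* were *Igfbp5* (r 0.90) and *Mcam* (0.89), and in HSA-LR mice alone these fell to 0.61 and 0.59. Both were higher in WT, with 1198 against 307 CPM in NT for *Igfbp5* and 44.2 against 25.3 for *Mcam*.

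*Acta2* was most like *Myl9* (r 0.87), *Csrp1* (0.79) and *Pecam1* (0.76), with 0.77, 0.70 and 0.63 in HSA-LR mice. *Actg2* also had *Myl9* as its nearest gene (r 0.76), then *Tcim* (0.72) and *Pxdc1* (0.70). *Actg1* was most like *Tnfaip2* (r 0.90), *Ckb* (0.84) and *Bcl6b* (0.83), with 0.82, 0.79 and 0.82 in HSA-LR mice, and *Actb* was most like *Tpm4* (0.82), *Myadm* (0.81) and *Ywhah* (0.81).

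Genes that act with actin were taken from fixed lists. Over all genes, edgeR called 4.97% in NT against WT, 2.57% at 42.4 mg/kg against NT and 7.9% at 42.4 mg/kg against WT, and whether a list had more calls than these shares was not tested. Serum response factor and its cofactors (*Srf*, *Mrtfa*, *Mrtfb* and *Myocd*) had 0 of 4 genes called by edgeR in any of the 8 comparisons, with 0 of the 32 tests at an unadjusted p under 0.05 and 0 called by DESeq2. Their summed level was 201 ± 10.5 CPM in WT, 179 ± 33.4 in NT and 151 ± 3.55 at 42.4 mg/kg. *Srf* was the most abundant with 103 CPM, and the median log2 fold change of NT against WT was -0.13.

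Of 23 tested partners of actin in the thin filament and at its anchors (24 were listed), 5 were called higher and 0 lower in NT than in WT, where 4.97% of all genes were called. Their median log2 fold change was 0.46, beside 0.03 over all genes. *Klhl41*, a protein that stabilises thin filament components, had 1182 ± 135 CPM in NT and 504 ± 43.9 in WT, with a log2 fold change of 1.23 (SE 0.10, adjusted p 2.10e-08 in edgeR). *Lmod2*, which lengthens thin filaments, had 244 ± 66.1 and 59.2 ± 23.9 CPM, with 2.04 (SE 0.33, adjusted p 0.000246 in edgeR). *Nrap* had 0.70 (SE 0.14), *Xirp1* 1.35 (SE 0.29) and *Actn2*, the alpha-actinin of the Z-disc, 1.05 (SE 0.23). *Actn2* lies outside the naming rule of 4 genes a list and was added after its values were seen. All 5 calls held with each mouse left out. The most abundant gene of the list was *Tnnt3*, with a mean of 13277 CPM, and 1 listed gene, *Tnni3*, was too low to be tested.

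At 42.4 mg/kg against NT, 2 of the 23 partners were called higher and 1 lower. *Lmod2* rose further, to 631 ± 43.6 CPM, with a log2 fold change of 1.37 (SE 0.34, adjusted p 0.0229 in edgeR), and *Xirp1* had 1.26 (SE 0.31, adjusted p 0.0229 in edgeR). *Lmod3*, a nucleator of actin filaments, fell to 112 ± 26.7 CPM from 203 ± 38.9, with -0.85 (SE 0.22, adjusted p 0.0293 in edgeR). The calls were lost with 1 library left out, while the log2 fold changes of those fits ran from 1.33 to 1.42 for *Lmod2*, 1.21 to 1.34 for *Xirp1* and -0.88 to -0.68 for *Lmod3*. The call for *Lmod2* was lost without mouse A (adjusted p 0.0582), B (0.190) or C (0.0905) at that dose. For *Xirp1* it was lost without A (0.0892), B (0.180) or C (0.0519), and for *Lmod3* without B (0.404), C (0.108) or NT 8 (0.0563). Against WT, 6 partners were higher at 42.4 mg/kg and 0 lower, among them *Lmod2* with 3.41 and *Xirp1* with 2.61, and *Klhl40* (1.26) was the one not called in NT.

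Of 28 genes of actin assembly and turnover, 3 were called higher and 0 lower in NT than in WT, beside 4.97% of all genes. The formin *Diaph1*, which elongates filaments, had a log2 fold change of 1.07 (SE 0.13, adjusted p 4.42e-06 in edgeR), *Cfl2*, the muscle cofilin, 0.56 and *Arpc5l*, a subunit of the Arp2/3 complex, 0.44. These calls held with each mouse left out. Compared with WT, 42.4 mg/kg had 3 higher and 0 lower: *Diaph1* (1.502), *Gsn* (0.94) and *Cfl2* (0.62). The call for *Gsn* was lost without mouse A (adjusted p 0.0787) or B (0.0559) at that dose and that for *Cfl2* without B (0.0789). *Gsn* was the most abundant gene of the list at 1157 CPM.

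Of 17 genes of actin folding and modification, 1 was called higher and 0 lower in NT than in WT, beside 4.97% of all genes. It was *Tcp1*, a subunit of the chaperonin that folds actin and the most abundant of the list at 170.5 CPM, with a log2 fold change of 0.51 (adjusted p 0.0358 in edgeR). The call was lost without WT 1 (0.0614), WT 2 (0.0582), WT 3 (0.0934), WT 4 (0.105), the unnumbered WT mouse (0.0597), NT 6 (0.0519), NT 7 (0.0703) or NT 8 (0.0799). In the comparison of 42.4 mg/kg with WT the 1 gene called was *Cct4* (0.41, adjusted p 0.0398 in edgeR), of the same chaperonin. That call was lost without WT 1 (0.0674), WT 2 (0.0606), WT 3 (0.0854), WT 4 (0.0929) or, at 42.4 mg/kg, A (0.140) or B (0.200).

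Of 10 other actin-related genes 7 were tested, and *Actr1b*, a subunit of the dynactin filament, was the 1 called in NT against WT, with a log2 fold change of 0.70. It was also the most abundant at 245 CPM. *Actl6b* and *Actbl2* were at 0 in every library, and *Actrt3* had a median count of 0. Against WT, *Actr1b* (0.94) and *Actr6* (0.87) were called higher at 42.4 mg/kg, and the call for *Actr6* was lost without mouse B (adjusted p 0.118) or C (0.0505) at that dose.

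Lists of marker genes were read beside the actins, and their part in the actin results was not tested. The percentages called over all genes stand beside these lists too. The skeletal muscle list, which includes *Acta1*, summed to 159263 ± 19735 CPM in WT and 159661 ± 11112 in NT, with *Myh4* the most abundant at 42577 CPM, and none of its 11 genes was at 0. *Myh1* was its 1 call in NT against WT (log2 fold change 1.43) and at 42.4 mg/kg against WT (1.52, lost without mouse A with an adjusted p of 0.0918). The slow fibre list had 0 of 7 genes called in any comparison by edgeR, with 3 of 56 tests at an unadjusted p under 0.05 and 0 called by DESeq2. Its sum varied widely between mice, at 187 ± 81.4 CPM in WT, 409 ± 478 in NT and 1164 ± 978 at 42.4 mg/kg, and *Myh7* was the most abundant at 183 CPM.

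*Actc1* is also the actin of heart and of immature fibres. The cardiac list had 5 of 10 genes tested, and *Myl7*, *Nppa*, *Nppb* and *Mybpc3* had a median count of 0. Its sum was 15.0 ± 6.15 CPM in WT, 96.1 ± 27.5 in NT and 180.4 ± 55.6 at 42.4 mg/kg. In NT and at 42.4 mg/kg the sum was mostly *Sln*, so it largely follows 1 gene. *Sln*, the most abundant (mean 70.0 CPM) and the 1 gene called, had 2.23 CPM in WT, 74.7 in NT and 119 at 42.4 mg/kg, with a log2 fold change of 5.06 (SE 0.49, adjusted p 1.68e-07 in edgeR) in NT against WT and 5.73 at 42.4 mg/kg against WT. The list of immature or regenerating fibre summed to 105 ± 39.4 CPM in WT, 135 ± 25.7 in NT and 178 ± 11.1 at 42.4 mg/kg, with *Myod1* the most abundant at 38.0 CPM and no gene at 0. *Ncam1* (1.26) and *Myh8* (1.21) of its 10 genes were called higher in NT than in WT, both again at 42.4 mg/kg against WT (1.74 and 1.64), and *Myog* (1.82) at 42.4 mg/kg against NT.

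Some of these calls were lost with 1 library left out. In NT against WT the call for *Myh8* was lost without WT 1 (adjusted p 0.0623), WT 2 (0.0589), WT 3 (0.119), WT 4 (0.109), NT 4 (0.0516), NT 7 (0.0728) or NT 8 (0.0739), with log2 fold changes of 1.06 to 1.28, and against WT it was lost without mouse B at 42.4 mg/kg (1.59, adjusted p 0.0528). The call for *Myog* was lost without NT 1 (0.0839), NT 2 (0.0859), NT 3 (0.0645), NT 4 (0.0672), NT 5 (0.0662), NT 6 (0.0798), NT 8 (0.0877) or mice B (0.689) or C (0.0592) at 42.4 mg/kg, with log2 fold changes of 1.13 without B and 1.70 to 2.04 without the others.

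*Acta2* and *Actg2* mark smooth muscle. The smooth muscle list of 9 genes, none of them at 0, had 1 gene called higher and 1 lower in NT than in WT by edgeR. In that comparison 6 of the 9 had an unadjusted p under 0.05 and DESeq2 called 3. *Myl9*, the gene most like *Acta2*, had 19.4 ± 3.36 CPM in NT and 35.9 ± 17.7 in WT, with a log2 fold change of -0.89 (SE 0.22, adjusted p 0.0156 in edgeR), a call lost without WT 1 (-0.59, adjusted p 0.122) or the unnumbered WT mouse (0.0548). *Synpo2* had 0.58. The sum was 3982 ± 213 CPM in WT, 5296 ± 916 in NT and 5333 ± 262 at 42.4 mg/kg, mostly *Des* (mean 3744 CPM), which skeletal fibres also express. The median log2 fold change was -0.40 in NT against WT and 0.01 at 42.4 mg/kg against NT, where 0 genes were called by edgeR, 2 had an unadjusted p under 0.05 and DESeq2 called 1. In mice given 42.4 mg/kg, *Synpo2* (0.42) was called higher and *Smtn* (-0.97) lower than in WT. *Synpo2* lost that call without WT 1 (0.0590), WT 3 (0.0504), WT 4 (0.0545), the unnumbered WT mouse (0.0840), or mice A (0.155), B (0.138) or C (0.0564) at 42.4 mg/kg. *Smtn* lost it without WT 1 (0.0826), the unnumbered WT mouse (0.0802), or mice A (0.0721), B (0.201) or C (0.0943).

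The endothelium list of 5 genes summed to 310.4 ± 97.8 CPM in WT, 216 ± 42.7 in NT and 213 ± 45.1 at 42.4 mg/kg, with *Cdh5* the most abundant at 77.2 CPM. In NT against WT edgeR called 0 of the 5, 4 had an unadjusted p under 0.05, DESeq2 called 1 and the median log2 fold change was -0.50. *Kdr* was called lower at 42.4 mg/kg than in WT (-1.26), a call lost without mouse B (adjusted p 0.123). Pericyte genes summed to 583 ± 59.3 CPM in WT and 475 ± 84.9 in NT, with *Abcc9* the most abundant at 266 CPM. Of 5 pericyte genes edgeR called 0 in any comparison, with 1 of 40 tests at an unadjusted p under 0.05 and 1 called by DESeq2.

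The macrophage list had 6 genes, none of them at 0. It summed to 44.2 ± 9.90 CPM in WT, 51.2 ± 9.50 in NT, and 87.8 ± 15.2, 97.5 ± 28.98 and 123 ± 16.7 at the 3 rising doses. Brush mice had a sum of 98.8 ± 9.13, pacDNA-Scr mice of 67.6 ± 16.7 and Free L9 mice of 41.1 ± 12.8, and *Csf1r* was the most abundant at 17.1 CPM. At 42.4 mg/kg against NT 4 of 6 were called higher: *Cd68* (2.11), *C1qb* (1.86), *Csf1r* (0.90) and *C1qa* (1.35), of which *Csf1r* (adjusted p 0.114) and *C1qa* (0.136) lost the call without mouse B. *Cd68* was also called in NT against WT (1.51) and at 21.2 mg/kg against NT (1.60, adjusted p 0.0426 in edgeR). The latter was lost without NT 1 (0.0993), NT 2 (0.111), NT 4 (0.0659), NT 5 (0.0530), NT 6 (0.112), NT 7 (0.0958), NT 8 (0.0604), or mice B (0.986) or C (0.357) at 21.2 mg/kg. The same 4 genes were called at 42.4 mg/kg against WT. At 21.2 mg/kg all 6 had an unadjusted p under 0.05, with a median log2 fold change of 0.85, and DESeq2 called 1. At 5.3 mg/kg and with Brush edgeR called 0 of the 6, 4 had an unadjusted p under 0.05 in each, and DESeq2 called 0 and 1.

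The Schwann cell list had 2 of 4 genes lower in NT than in WT, with sums of 101 ± 50.5 CPM in WT and 49.6 ± 12.6 in NT. *Mbp* was among them (-0.91). The call of *Mbp* was lost without WT 1 (adjusted p 0.179), WT 3 (0.110), WT 4 (0.0534), NT 1 (0.0711), NT 3 (0.0585), NT 4 (0.0678), NT 5 (0.0688), NT 6 (0.0580) or NT 8 (0.0660).

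Fibroblast, satellite cell and adipocyte genes were called in no comparison by edgeR. For the 6 fibroblast genes 6 of 48 tests had an unadjusted p under 0.05 and DESeq2 called 4, with sums of 1437 ± 1105 CPM in WT and 917 ± 334 in NT and *Col3a1* the most abundant at 382 CPM. For the 4 satellite cell genes it was 3 of 32 tests and 1 by DESeq2, with 23.5 ± 1.75 CPM in WT, 26.5 ± 4.48 in NT and *Cdh15* at 21.5 CPM. For the 4 adipocyte genes it was 1 of 32 tests and 1 by DESeq2, with 119 ± 90.3 CPM in WT, 67.4 ± 118 in NT and *Plin1* at 28.2 CPM. None of these genes was at 0 in every library.

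Over all 17 lists together 146 of 154 genes were tested. In the comparisons of 5.3 mg/kg, Free L9, Brush and pacDNA-Scr with NT, edgeR called 0 of them. At an unadjusted p under 0.05 there were 5, 9, 4 and 1 genes in that order, and DESeq2 called 0, 0, 2 and 1. At 21.2 mg/kg against NT the 1 call was *Cd68*.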

How the data were processed

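Counts per Ensembl gene for the quadriceps of 30 mice were used as deposited: the authors trimmed and mapped poly(A) reads to GRCm39 with HISAT2 2.0.5 and deposited raw counts without normalization. Counting options and annotation release are not given in the sources used here. Genes were matched to GENCODE vM39. Each library was assigned to its group and number from its label, except 1 WT library with a group but no number, and no column was left out.

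In edgeR 4.0.16 (R 4.3.3), 17518 genes passed filterByExpr. After TMM normalization, a robust quasi-likelihood model with 1 coefficient per group was fitted to all 30 libraries and tested with glmQLFTest. Benjamini-Hochberg adjustment covered all genes tested, with a threshold of 0.05. The SE is the absolute log2 fold change over the square root of F. DESeq2 1.42.0 (Wald test) was run as an alternative, and edgeR drew on limma 3.58.1. Shares used exon lengths of the annotation, and correlations, permutation tests and Wilson 95% intervals used scipy 1.17.1 with numpy 2.4.6, pandas 2.3.3 and Python 3.11.15. Figures were drawn with matplotlib 3.10.9. A library's floor is 3 counts. Intervals and floors cover counting error only. The 30 libraries held 13605309 to 26956558 counts.

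The members and the 17 lists (skeletal, slow fibre, immature fibre, cardiac and smooth muscle, pericyte, fibroblast, endothelium, macrophage, satellite cell, adipocyte and Schwann cell markers, SRF and its cofactors, thin filament partners, actin assembly and turnover, actin folding and modification, other actin-related genes) were chosen with earlier results of these data known. Named genes are the 6 actins, the 3 genes most like each, and from each list the genes past the threshold, at most 4 by smallest p, and its most abundant gene. Values of 2 such genes are left out of the text. Alternatives changed normalization, filter, test, dispersion, libraries, covariates, lengths or left out 1 mouse. The second set alone, the first set with the naming of libraries as a covariate, females only, the 4 shared numbers without a block, shared letters of column names, canonical transcripts and correlations with 1 mouse left out were chosen after seeing the data.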

Additional observations from a re-analysis of the deposited data

Results flagged for a closer look

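Levels, shares of actin per kilobase and the actin percent of the library were searched, in groups of 4 to 8 mice, for a mouse far from the others of its group by Dixon's criterion, and 10 of 39 values looked at had one. Chance gives about 1 in 20. The values share libraries and are not independent of each other, since a high share of one gene lowers that of another.

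WT 1 stood apart in 5 of them. It had the highest *Acta1* level in WT, 50642 CPM, against 36081 to 40217 in the other 4 mice. Its *Actc1* level was 3185 CPM, against 195 to 696. *Acta1* held 94.7% of its actin per kilobase, against 97.5% to 98.1%, and *Actc1* held 3.82%, against 0.328% to 1.18%. All actin genes together made up 5.596% of its library, against 3.77% to 4.19%. In the unnumbered WT mouse *Actg1* held 0.611% of actin, against 0.418% to 0.456%.

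NT 7, of the second set, had 152 CPM of *Actg1*, against 92.9 to 113 in the other NT mice, and *Actb* held 0.971% of its actin, against 0.511% to 0.691%. Mouse C at 5.3 mg/kg, also of the second set, had an *Acta1* share of 98.3%, against 98.6% to 98.7%, and an *Actb* share of 0.974%, against 0.779% to 0.797%. What sets these mice apart was not tested.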

How the results depend on the processing

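Over the 48 log2 fold changes of the actin genes, 1306 values were computed under alternatives. Of these, 1277 kept their side of the threshold, 26 lost and 3 gained a call, and 0 reversed. Among the 1277, 83 values of 19 fold changes changed sign without being called in either case. Counts of called genes, shares and correlations are not part of these totals. *Actc1* with *Actg1* lost its call as a correlated pair in 7 of 26 alternatives, and *Acta2* with *Actg2* in 5 of 26. *Actb* with *Actg1* gained a call in 5 of 26.

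For NT against WT, 3 actin genes were called. The count was 1 with an absolute log2 fold change above 1 required, 1 with mouse numbers as a block and 1 in females alone, and with 1 mouse left out it ran from 1 to 3. *Actc1* was the gene called beyond 1 and in females, and its log2 fold change ran from −4.69 to −3.76 over settings and from −4.92 to −3.42 with 1 mouse left out. For 42.4 mg/kg against NT the count of 0 became 1 by DESeq2 and 1 with only these groups in the model, and for Free L9 against NT it became 1 (*Actc1*) in the second set alone. That fit has 1 Free L9 library, the only one there with mitochondrial counts, and is no test of the group. The cause was not tested. The count for 42.4 mg/kg against WT was 2 throughout, and those of the other comparisons were 0 throughout.

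The 4 numbers that WT and NT share showed no consistent pairing: r between mice of 1 number was 0.225, 0.0498, 0.0628 and 0.259, and the best with another number was 0.159, 0.284, 0.137 and 0.0351. With the block *Actc1* had −3.87 (adjusted p 0.0564) and *Actg1* −0.56 (0.0249). The same mice without a block gave −4.44 (0.0429) for *Actc1*. Column names share a letter between WT 3 and NT 4 (r -0.0614) and between WT 4 and NT 5 (0.208), and the best with another NT mouse was 0.137 and 0.259. The plan named 5 shared numbers, and the labels bear out 4.

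The count of 2 correlated pairs was 1 over both sets, 0 in the second set (6 mice) and 1 as deviations from group means. It was also 1 in the 11 mice left without the HSA-LR libraries named by running number. In those 11 mice both pairs lost their call and the 1 pair called was *Actb* with *Actg1*. The 1 pair over both sets and as deviations was *Acta2* with *Actg2*. Over settings the count ran from 0 to 3. *Actb* with *Actg1* also passed by Spearman's rho and without the 2 mice farthest from the median of *Actb*. With 1 mouse left out the count ran from 0 to 3. The cause was not tested.

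Shares depended on the length used: the *Acta1* share in NT was 99.3% with canonical transcripts, and without length the *Actc1* share in NT was 0.0856%.

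Counts over all genes moved more. NT against WT gave 871, and 1966 by DESeq2, 1311 with only these groups, 419 beyond a log2 fold change of 1 and 341 in females. For 42.4 mg/kg against NT it was 450, and 1372 by DESeq2 (527 higher, 845 lower), 276 beyond 1, 132 with naming as a covariate, 110 with naming in the first set and 80 in females. For Free L9 it was 22, and 354 in the first set, 538 in the second (1 Free L9 library), 397 without libraries at 0 mitochondrial counts, 165 with set as a covariate and 0 with only these groups. At 21.2 mg/kg it was 9, and 16 by DESeq2, 5 with at least 10 counts required, 4 in the second set (1 library at that dose), 2 in the first, 2 in females, 2 without libraries at 0 mitochondrial counts and 0 with only these groups. DESeq2 called 202 genes with Brush and 300 with pacDNA-Scr.

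Depth limits *Actg2*, with 1 to 46 counts a library.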
